A study of Mus musculus with 10 samples.

Results

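Wild type AHR peaks were examined that lay where a ChIP peak was also called without the AHR protein, in AHR knockout (AHR KO) organoids. Whether AHR added to the wild type signal at these peaks was not tested. The set was defined by measured values, as the peaks of the wild type list that overlapped any AHR KO peak by 1 bp or more. Of 123652 wild type peaks, 1864 met this rule, which is 1.51% of the list, and they are called shared peaks here. The other 121788 peaks are called unshared. On the AHR KO side, 1884 of 1931 peaks overlapped a wild type peak.

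The peaks came from mouse colon organoids, which are epithelial cultures grown from crypts, kept in WENR, a medium that holds them in a stem cell condition. Wild type and AHR KO organoids both received 5 nM of FICZ, a high-affinity AHR ligand, for 1 hour before ChIP with an anti-AhR antibody. There were 4 wild type cultures, each with 1 ChIP and 1 input library, and AHR KO organoids with 1 ChIP and 1 input library. Per the study's methods, organoids of the knockout came from mice in which Cre under the Vil promoter, active in intestinal epithelium, removed a floxed Ahr gene. Those methods describe biological replicates for both genotypes, and whether knockout cultures were pooled for the single AHR KO library is not stated. All wild type cultures entered a single peak list, so no value per culture was analysed, and with 1 AHR KO list no difference between the genotypes had a replicate check. The p-values below therefore compare peaks within the wild type list and do not treat peaks as replicates of a genotype. AHR itself could not be checked in these peak lists, which hold no level of the gene or protein.

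AHR resides in the cytoplasm until a ligand binds it, enters the nucleus, and pairs with ARNT on DNA that holds the core GCGTG, as at its well-known target Cyp1a1. A ChIP from cells without the target protein shows where chromatin is recovered by other routes, such as binding of the antibody to other proteins or reads that pile up on repeated sequence. Simple repeats of the dinucleotide CA are spread over mouse chromosomes, while satellite arrays surround centromeres and the unit TTAGGG caps chromosome ends.

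The sequences that carry most of the shared signal are simple. The 200 bp around the midpoint (the window) of the highest-scoring shared peak of a kind are shown from GRCm38 (RefSeq), forward strand, with an unshared CA repeat peak for contrast. Capitals mark runs of at least 3 CA or TG units in the CA windows, GGAAT or ATTCC copies in the tandem GGAAT window and runs of at least 8 A or T in the A-run window. The windows are chr10:115780619-115780818, chr2:12069361-12069560, chr17:4626271-4626470 and chr1:122602891-122603082, in the order printed.
Shared CA repeat peak: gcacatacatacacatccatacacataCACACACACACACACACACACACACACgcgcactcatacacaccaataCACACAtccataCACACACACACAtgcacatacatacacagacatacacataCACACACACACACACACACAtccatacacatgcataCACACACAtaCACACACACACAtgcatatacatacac
Unshared CA repeat peak of like width: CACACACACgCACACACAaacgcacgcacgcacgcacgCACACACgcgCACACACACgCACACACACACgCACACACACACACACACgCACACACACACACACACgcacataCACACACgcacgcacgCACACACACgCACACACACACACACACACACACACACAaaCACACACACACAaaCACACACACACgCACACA
Shared tandem GGAAT peak: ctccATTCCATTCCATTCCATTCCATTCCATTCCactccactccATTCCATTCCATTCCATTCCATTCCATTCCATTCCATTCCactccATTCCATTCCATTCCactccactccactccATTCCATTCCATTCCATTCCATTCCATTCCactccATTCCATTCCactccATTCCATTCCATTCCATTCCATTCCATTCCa
Shared A-run peak: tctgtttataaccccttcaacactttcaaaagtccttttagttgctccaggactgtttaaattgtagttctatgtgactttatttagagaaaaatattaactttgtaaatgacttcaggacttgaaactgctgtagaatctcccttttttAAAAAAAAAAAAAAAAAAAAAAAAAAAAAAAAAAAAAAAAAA

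The shared CA repeat peak was 749 bp wide with a score of 35.1, the 6th highest of all wild type peaks, and its AHR KO partner scored 6.82. The score is the fold enrichment of the ChIP over background as deposited, and it was not compared between the lists, which come from different libraries. Its window held 85 bases in CA runs, the longest of them 28 bases, broken up by short interruptions. The unshared peak, the highest-scoring of its kind within 20 bp of that width, was 750 bp wide with a score of 14.4 and held 151 bases in CA runs with the same longest run of 28 bases. This pair therefore goes against the direction of the whole class given below, and the letters of a single window did not separate shared from unshared peaks. The tandem GGAAT peak scored 23.2 on the wild type list and 28.7 on the AHR KO list, and 155 of its 200 window bases were whole GGAAT units. The A-run peak, 192 bp wide and printed whole, scored 8.31 and 9.66.

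Members of other kinds looked different. The window of the highest-scoring shared peak in mostly unmasked sequence is chr4:16163732-16163931. It was searched for GCGTG on both strands and did not hold it, so no letter is in capitals.
Shared peak in mostly unmasked sequence: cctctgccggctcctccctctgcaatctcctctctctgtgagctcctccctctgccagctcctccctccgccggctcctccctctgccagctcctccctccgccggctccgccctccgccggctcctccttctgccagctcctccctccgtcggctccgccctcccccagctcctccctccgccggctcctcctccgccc

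This peak lay at the promoter of Ripk2, a kinase that relays signals from bacterial sensors, and scored 15.1 and 11.4. Its window was 73.5% G or C with 14 CpG sites, 23% of it masked, and the peak repeated itself at 48 bases with 66.6% identity.

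Width and score differed between the members and other peaks. Both come from the peak calling on which the rule rests, so these values are given without a test. The median shared peak was 507 bp wide (quartiles 366 and 701) against 227 bp (193 and 293) for unshared peaks, and the narrowest was 181 bp in both sets. The median score was 7.68 (quartiles 6.25 and 9.30) against 5.32 (4.50 and 5.98). The highest score of the wild type list, 60.4, belonged to an unshared peak. Shared peaks made up 1 of the 10 highest scores, 17 of the 100 highest and 252 of the 1000 highest (25.2%), against 1.51% of the whole list. On chromosomes 1 to 19, X and Y, 0.120% of peaks under 200 bp wide were shared (45 of 37536), 4.68% of those from 400 to under 500 bp (339 of 7249) and 50.7% of those of 1000 bp or more (142 of 280). From 400 to under 500 bp, the percent shared went from 0.526% in the lowest of 3 equal score groups to 8.29% in the highest. Under 200 bp it did not rise with score, at 0.178% in the lowest group and 0.0746% in the highest.

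**Figure D1:**
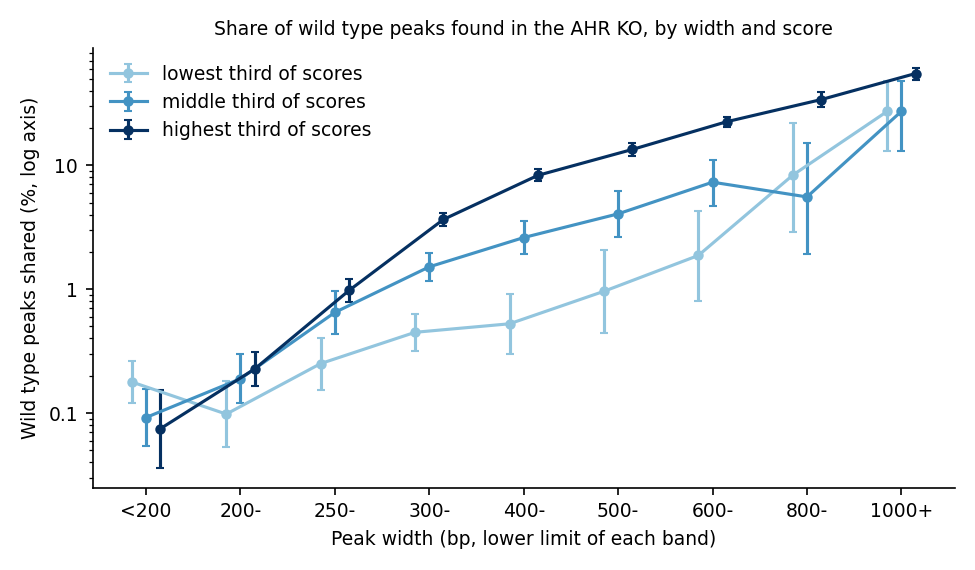
Percent of wild type peaks on chromosomes 1 to 19, X and Y that were shared (log axis) against peak width in bp, for 3 equal groups of score; points are shares and bars are 95% Wilson intervals, which cover counting error only. In the highest score group the share climbs from 0.0746% in the narrowest band to 55.1% in the widest.

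Overlaps were mostly deep. Of the members, 1831 touched 1 AHR KO peak, 32 touched 2 and 1 touched 3. The median overlap was 289 bp, or 63.7% of the wild type peak. In 1808 cases a single wild type peak met a single AHR KO peak, their midpoints lay a median of 53 bp apart, and in 1044 of them (57.7%) the AHR KO peak was wholly inside the wild type peak. Across those pairs the wild type score said little of the AHR KO score (Spearman's rho 0.11, n = 1808), while widths went together more closely (rho 0.46). Both are descriptions across sites that share their libraries.

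The member closest to the rule's limit, at chr7:73329371-73329560, overlapped its AHR KO peak by 2 bp and scored 4.23. The next overlaps were 18 and 32 bp. Just outside the limit, the unshared peak at chr5:139653111-139653300 lay 16 bp from an AHR KO peak and scored 4.98, followed by gaps of 18 and 19 bp. In all, 8 unshared peaks lay within 100 bp of an AHR KO peak. The 47 AHR KO peaks that met no wild type peak were narrower than the others (median 247 bp against 303 bp), with a median score of 6.43 against 6.84, and 29 of them were CA repeats.

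Repeat content distinguished shared peaks from unshared peaks matched on width. Peaks of 600 bp or more formed 1 stratum and were not matched further within it. In it the percent shared went from 17.7% (348 of 1968, under 800 bp) to 50.7% (142 of 280, 1000 bp or more). Windows were taken on chromosomes 1 to 19, X and Y, which hold 1805 of the members and 123366 of all wild type peaks. CA repeats were windows in which CACACA or TGTGTG was found 3 times or more without overlap. They made up 84.0% of shared peaks (1516, 95% Wilson interval 82.2 to 85.6%) against 51.4% of unshared peaks standardised to the same width strata. The odds ratio was 4.73 (95% interval 4.16 to 5.37, Mantel-Haenszel chi-square test over width strata, adjusted p = 4.32e-152). Tandem GGAAT, 3 or more units in a row, was rare in both, at 0.831% of shared peaks (15) against 0.00487%. Of the 26 wild type peaks with such a run, however, 15 were shared (57.7%, interval 38.9 to 74.5%). The odds ratio was 171 (interval 48.4 to 604, chi-square adjusted p = 1.71e-62). With 26 such peaks over many width strata the chi-square approximation is poor, so this p-value is only a rough guide. Windows with another perfect tandem run of at least 24 bases were fewer among shared peaks, 8.98% (162) against 14.3% (odds ratio 0.64, chi-square adjusted p = 9.30e-08). That last difference did not pass the threshold of 0.05 once score was matched as well (odds ratio 0.90, chi-square adjusted p = 0.357), whereas among peaks in the top 10% of scores the values were 1.10% and 5.49% (odds ratio 0.20, chi-square adjusted p = 7.50e-09).

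Masked sequence without a short tandem run, called interspersed-type here, was scarce in the shared set. Windows that were at least 50% masked but held none of these tandem runs made up 4.43% of shared peaks (80). The value for unshared peaks of like width was 32.1% (odds ratio 0.098, interval 0.078 to 0.12, chi-square adjusted p = 1.21e-136). These runs had units of at most 6 bases, so the name covers arrays of longer units too. Of the 112 members in no tandem class, 28 repeated themselves at a period of 7 bases or more with at least 70% identity. Of 33498 wild type interspersed-type peaks, 0.239% were shared, below the 1.51% of the list. The remaining 32 members lay in mostly unmasked windows, a class in which 4.05% of 790 wild type peaks were shared. At least 75% of the window was masked in 87.6% of shared peaks and 83.5% of unshared peaks of like width (odds ratio 1.38, chi-square adjusted p = 3.19e-05). The directions for CA repeats, tandem GGAAT, masking and interspersed-type sequence were the same with score matched too, although the odds ratio for CA repeats was then 2.07, with 73.9% of unshared peaks in the class, and those for tandem GGAAT and interspersed-type sequence were 70.8 and 0.25.

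**Figure D2:**
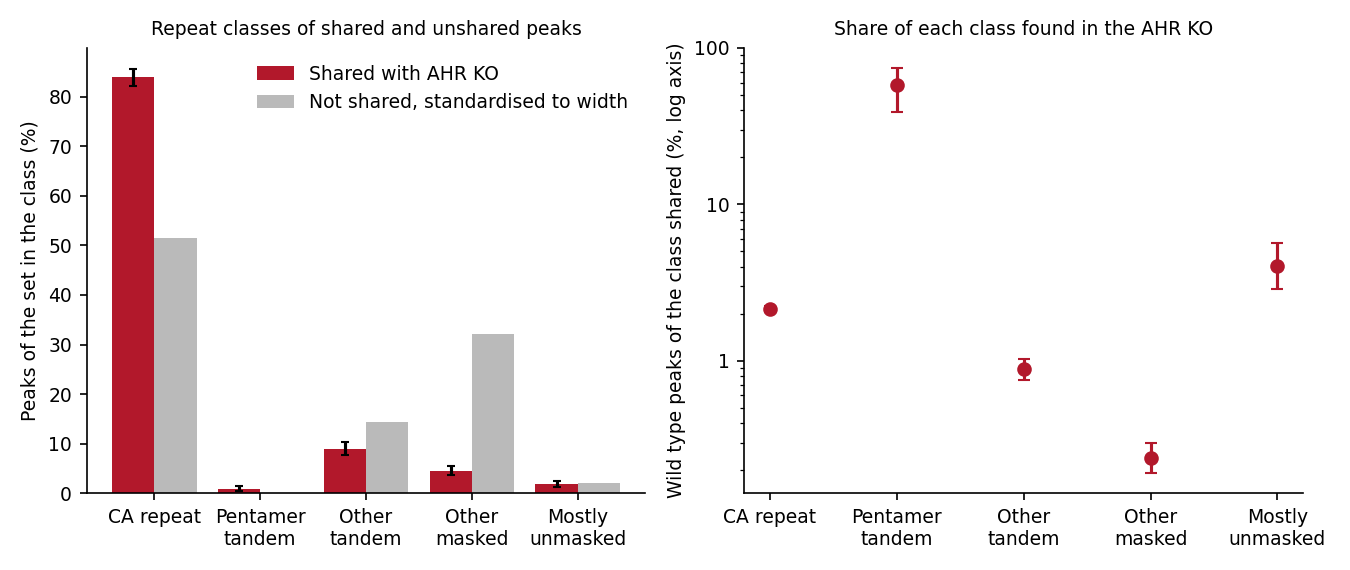
Left, percent of shared peaks in each of 5 repeat classes (red, n = 1805, bars 95% Wilson intervals). Grey bars are unshared peaks standardised to the width strata of the shared ones. Pentamer tandem stands for the tandem GGAAT class. Right, percent of the wild type peaks of each class that were shared (log axis, 95% Wilson intervals), from 0.239% of other masked peaks to 57.7% of the pentamer class.

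Shared CA repeat peaks held more CA sequence than unshared CA peaks of like width. These measures were chosen after the values were seen and carry no test. Without matching on width, the median shared CA window had 119 of 200 bases in CA runs of at least 3 units (quartiles 89 and 154), against 54 (44 and 73) in unshared CA windows. Standardised to width, the means were 120 and 85.4 bases. Also without matching, the median longest perfect CA run was 20 bases in shared and 40 bases in unshared CA windows, while the width-standardised means were 26.4 and 23.8 bases. From 200 to under 300 bp, 0.889% of CA peaks with runs of at most 15 bases, 0.366% with runs of 41 to 50 bases and 0.493% with longer runs were shared. From 400 to under 600 bp the values were 10.0%, 8.48% and 22.0% (26 of 118), so the percent shared did not follow run length in one direction. Without matching on width, every base of the window was masked in 70.1% of shared and 11.5% of unshared CA peaks, and over the whole peak the median shared CA peak had 251 bases in CA runs, or 47.9% of its length, and the median unshared CA peak 56 bases, or 26.1%.

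Within a band of width, the percent of CA repeat peaks that were shared rose with CA content. From 400 to under 600 bp it was 1.42% with at most 40 CA bases (8 of 562), 10.8% with 81 to 100 (84 of 780) and 28.5% with more than 140 (231 of 811). From 200 to under 300 bp the same steps gave 0.0572%, 0.794% and 6.17%. Among CA peaks of 600 bp or more, 12.7% with at most 40 CA bases were shared, 11.9% with 41 to 60 and 59.8% with more than 140. Score also differed between shared and unshared CA peaks, with medians of 7.99 and 5.65, and its part in this gradient was not tested.

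**Figure D3:**
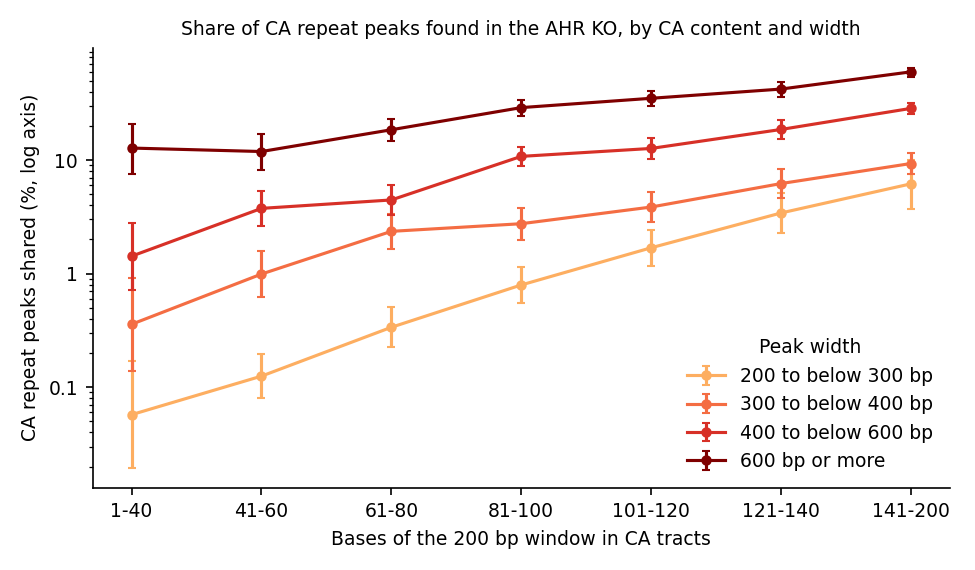
Percent of CA repeat peaks that were shared (log axis) against the number of window bases in CA runs, for 4 bands of peak width; bars are 95% Wilson intervals. In the band from 400 to under 600 bp the share goes from 1.42% at the lowest CA content to 28.5% at the highest.

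Other tandem units differed widely in how often they were shared, and units are given as either strand reads them. Of wild type peaks with a perfect run of at least 24 bases, 1.20% with the unit CA were shared (615 of 51290) and 0.171% with the unit GA (24 of 14070, interval 0.115 to 0.254%), although the median widths of all peaks with these units were 214 and 215 bp. Between 300 and 600 bp the values were 5.69% for CA (367 of 6447) and 0.508% for GA (9 of 1773). Runs of A were shared in 6.71% of cases (78 of 1163), and between 300 and 600 bp in 15.2% (32 of 211). Without matching on width, the median longest run was 55 bases in shared and 35 bases in unshared peaks. Their median widths were 296 and 201 bp. Of the 78, 49 were intergenic and 29 intronic. The units ACAGC and AAAG were shared in 19.7% (15 of 76) and 0.380% (10 of 2631) of cases, and between 300 and 600 bp in 11.8% (4 of 34) and 0.679% (5 of 736). The unit AAG, by contrast, was shared in 2 of 1581 peaks and AGAGGC in 0 of 737, for which 3 counts would be a share of 0.407% (95% Wilson upper limit 0.519%). The units were read after the values were seen, so no difference between them was tested.

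The telomere unit TTAGGG was shared more often than any other unit with at least 10 shared peaks except GGAAT. Of 110 wild type peaks with a run of it, 46 were shared (41.8%, interval 33.03 to 51.16%). They fell into terminal and internal sites. On 17 chromosomes a peak with this unit lay within 1 kb of the last sequenced base, and 14 of these 17 were shared. The 3 exceptions, on chromosomes 6, 15 and 17, were 308, 205 and 302 bp wide with perfect runs of 99, 59 and 93 bases. The 14 shared ones were 290 to 871 bp wide with runs of 81 to 200 bases, so both measures overlapped. Runs were read in the 200 bp window, so 200 bases is the upper limit of that measure. The exceptions had the higher wild type scores, 6.83, 6.56 and 5.69. Scores of the 14 were alike, from 4.98 to 5.54, with AHR KO scores of 5.21 to 8.73. Only 1 other wild type peak lay within 1 kb of a last sequenced base, and it was shared as well. Away from chromosome ends, 32 of 93 peaks with the unit were shared (34.4%), with a median width of 316 bp against 268 bp for the unshared ones and median scores of 5.44 and 5.19.

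Every word as long as a read was unique in the assembly for 84.0% of shared peaks and 71.8% of all unshared peaks. Only exact copies were counted, so copies that differ or that the assembly lacks were not seen. Windows in which at least 50% of such words occurred more than once made up 6.32% of shared peaks (114) against 17.9% of unshared peaks of like width (odds ratio 0.31, interval 0.26 to 0.38, chi-square adjusted p = 8.54e-36). With score matched as well the unshared value was 7.78% (odds ratio 0.77, chi-square adjusted p = 0.0241). With words of 50 bases the shares were 29.4% and 37.9% (odds ratio 0.67, chi-square adjusted p = 2.68e-13). Among peaks in the top 10% of scores the odds ratio with read-length words was 0.97 (chi-square adjusted p = 0.879). Of the 114, 69 were CA repeats, 29 other tandem runs, 15 other masked and 1 mostly unmasked. In 27 of them the median word had at least 100 copies, up to 2692.

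A small number of members were many times wider than other peaks. The widest, 47416 bp on the unplaced sequence JH584304 at positions 67037 to 114452, met an AHR KO peak of 47110 bp. The next, at chr9:2999900-3038456 near the start of the sequenced chromosome, was 38557 bp wide with an AHR KO peak of 38644 bp, and its first bases repeated at a period of 234 with 73.3% identity. Peaks at chr11:3099925-3104862 (4938 bp) and chr14:19415612-19419806 (4195 bp) followed on the chromosomes. Their scores were modest, from 5.34 to 6.31. The AHR KO peaks at these 4 sites were 4145 to 47110 bp wide. The widest unshared peak was 2582 bp. Of the 112 members without a short tandem run, 28 repeated themselves at a period of 7 bases or more with at least 70% identity.

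Unplaced and unlocalised sequences and the mitochondrial genome held 59 members of their 286 wild type peaks (20.6%), against 1.51% of the list. These 59 lay on 10 of 34 such sequences. Every wild type peak on GL456383 (17 of 17), GL456389 (11 of 11), GL456390 (9 of 9), GL456396 (5 of 5) and GL456393 (4 of 4) was shared, as were 6 of 7 on GL456392. Median widths of the shared peaks on these 6 sequences ran from 919 to 2407 bp. On JH584304, 4 of 30 were shared. None of the 8 mitochondrial peaks was shared. The sequence of these 59 peaks was not analysed here, so none of them entered the repeat, motif or gene counts.

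Along the chromosomes shared peaks were mostly dispersed. Percentages on the 19 autosomes ran from 1.13% on chromosome 7 (78 of 6894, interval 0.908 to 1.41%) to 2.04% on chromosome 19 (61 of 2994, interval 1.59 to 2.61%), and densities from 0.548 to 1.05 shared peaks per Mb on the same chromosomes. The X chromosome held 15 of its 1762 peaks as shared (0.851%) and the Y chromosome 21 of 690 (3.04%, interval 1.999 to 4.608%). On X none of the 15 was a CA repeat, and 5 of them lay in 1 cluster. CA repeats were 259 of the X wild type peaks (14.7%), and 2.15% of CA repeat peaks on all these chromosomes were shared. On Y, 12 of the 21 were other tandem runs. Matched on width, X held 0.841% of shared and 1.17% of unshared peaks (odds ratio 0.76, interval 0.46 to 1.27, chi-square adjusted p = 0.299). The direction turned with score matched too (odds ratio 1.77) and in the top 10% of scores (3.10), neither past the threshold, and with 1 peak for each locus the odds ratio was 0.466 (chi-square adjusted p = 0.0133). The first 10 Mb of a chromosome, the end at which mouse centromeres lie, held 7.29% of shared peaks (130) against 5.50% of unshared peaks of like width (odds ratio 1.35, interval 1.11 to 1.63, chi-square adjusted p = 0.00366). In the top 10% of scores this did not pass (odds ratio 1.33, chi-square adjusted p = 0.0811). Within 500 kb of the first sequenced base, 22 of 513 wild type peaks were shared (4.29%).

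**Figure D4:**
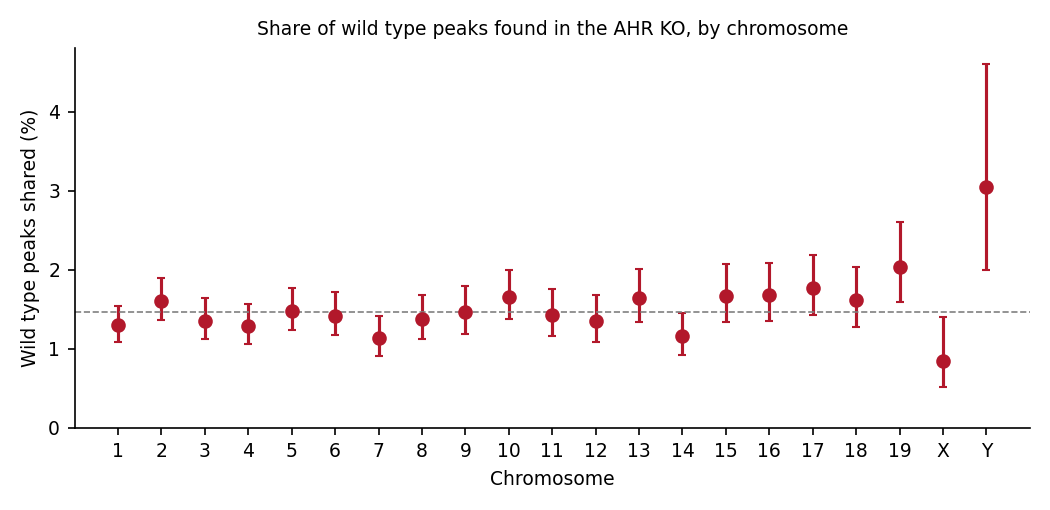
Percent of wild type peaks that were shared on each chromosome, with 95% Wilson intervals for counting error; the dashed line is the share over all of these chromosomes. Autosomes run from 1.13% to 2.04%, X is lowest at 0.851% and Y highest at 3.04%.

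Clustering was limited to a small part of the set. Another shared peak lay within 10 kb of 143 members (7.67%), in 46 clusters. Of these clusters 34 were pairs and 12 held 3 peaks or more, with 6 of the 12 on unplaced sequences. On chromosomes 1 to 19, X and Y, 89 members (4.93%) had such a neighbour, and for 3.32% of members the nearest wild type peak was itself shared, against 1.47% of unshared peaks. The largest clusters on chromosomes had 5 peaks at chrX:75650729-75668872, where the span held 17 wild type peaks in all, 4 at chrY:90811234-90819894 over the gene model Gm47283, 4 at chr2:98662119-98667442 over the gene models Gm10801 and Gm10800, and 4 at chr10:3109470-3117182. All 4 wild type peaks in the spans on Y and chromosome 2 were shared. The chromosome 10 cluster had its last midpoint 16622 bp from the first sequenced base, consisted of CA repeats with scores of 2.82 to 3.70, and held the lowest score of any member. Clusters of 3 lay in Pdzk1, a scaffold protein of epithelial brush borders, at chr3:96840529-96849851, where 3 of 5 peaks in the gene were shared, and at chrY:90734959-90738662.

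Shared peaks were not richer in the full AHR motif. TNGCGTG, the AHR and ARNT site, was present in 1.33% of shared windows (24) against 2.61% of unshared windows of like width (odds ratio 0.50, interval 0.33 to 0.75, chi-square adjusted p = 0.00143). Matched on score too, the odds ratio was 0.63 and did not pass (chi-square adjusted p = 0.0683). The core GCGTG was present in 19.8% of shared windows (357) against 15.6% (odds ratio 1.33, interval 1.172 to 1.501, chi-square adjusted p = 1.97e-05), a direction that reversed when score was matched (odds ratio 0.99, chi-square adjusted p = 0.949). Of the 357 windows, 339 (94.96%) were CA repeats, beside 84.0% of all shared windows, and in 265 (74.2%) the core was embedded in CA units as ACACGCA, read on either strand. In windows without a CA repeat the core was found in 6.23% of shared (18 of 289) and 13.0% of unshared peaks (6807 of 52412), without matching. Of the 24 shared windows with TNGCGTG, 20 were CA repeats, a share close to the 84.0% of all shared windows. GGAATG, the TEAD motif, was present in 2.77% of shared windows (50, 15 of them tandem GGAAT) against 4.99% (odds ratio 0.55, chi-square adjusted p = 8.25e-05), which did not pass with score matched (odds ratio 0.78, chi-square adjusted p = 0.184). The AP-1 motif, TGACTCA or TGAGTCA, was present in 0.554% (10) against 0.828% (odds ratio 0.69, interval 0.36 to 1.30, chi-square adjusted p = 0.275).

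Shared peaks lay in genes slightly more often than unshared peaks of like width, but not of like score. By midpoint, 804 members (44.5%) were intronic, 934 (51.7%) intergenic, 56 (3.10%) at promoters and 11 (0.609%) exonic. The values for unshared peaks of like width were 41.4% (odds ratio 1.14, chi-square adjusted p = 0.0120), 55.7% (odds ratio 0.85, chi-square adjusted p = 0.00190), 2.38% (odds ratio 1.33, interval 1.00 to 1.76, chi-square adjusted p = 0.0606) and 0.518% (odds ratio 1.09, interval 0.58 to 2.07, chi-square adjusted p = 0.793). With score matched as well, the odds ratios for introns and intergenic sequence were 0.993 and 0.997 (both chi-square adjusted p = 0.949), the first with its direction reversed. CA repeats made up 709 of the intronic, 757 of the intergenic, 41 of the promoter and 9 of the exonic members.

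**Figure D5:**
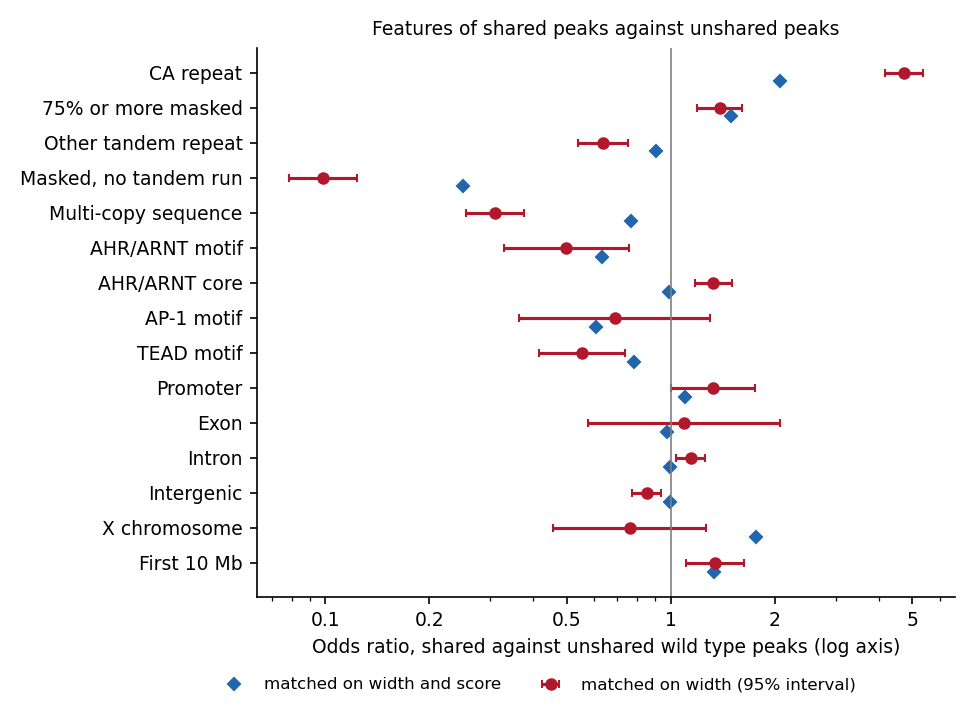
Odds ratios (log axis) of 15 features in shared against unshared wild type peaks, matched on width (red, bars 95% intervals) and matched on width and score (blue, no interval shown). The 2 settings lie on the same side of 1 for CA repeats (4.73 and 2.07) and masked sequence without a short tandem run (0.098 and 0.25). The AHR/ARNT core, intron, exon and X chromosome values change side. Tandem GGAAT, at 171 and 70.8, is beyond the axis and is left out.

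Genes that held the most shared peaks were long. A shared peak lay in the body of 625 of 21938 protein-coding genes (2.85%), and in 949 (4.33%) it lay in the gene or within 10 kb. The median length was 136 kb for genes with a shared peak in the body and 16.7 kb for the rest, and 74 genes held 2 or more. The genes below were picked by their counts, and 1.51% of the whole list was shared. The predicted gene Gm20388 on chromosome 8 had 11 of 274 wild type peaks shared, but its model spans 4435 kb and overlaps 73 other protein-coding genes. Cdh13, a cell adhesion cadherin, had 5 of 63 and Fgfr2, a receptor for fibroblast growth factors, 5 of 154. The Fgfr2 model spans 2961 kb and takes in another protein-coding gene with 2 of 7 peaks shared. The nuclear receptor gene Esrrg (4 of 29), the cAMP phosphodiesterase gene Pde4d (4 of 86) and the lipid kinase gene Pik3c2g (4 of 22) followed. Ctnnd2, a catenin family member, had 3 of 37, the diacylglycerol kinase gene Dgki 3 of 15 and Lhfpl3 3 of 36. The Y-linked gene model Gm47283, with 3 of 3 peaks shared, was short at 31.7 kb, and so was Pdzk1, named above for its cluster, at 41.6 kb.

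The 10 highest-scoring shared peaks comprised 7 CA repeats and 3 tandem GGAAT arrays. After the CA repeat shown first, 36.1 kb from the tetraspanin gene Tspan8, came peaks with scores of 31.6 at chr2:83702409-83703073 (21.7 kb from the integrin gene Itgav), 29.2 at chr7:80166478-80166832 (20.2 kb from the semaphorin gene Sema4b) and 23.3 at chr1:86441377-86441785 (13.5 kb from Tex44). Their AHR KO partners scored 16.9, 5.71 and 7.77. The tandem GGAAT peaks were the array printed above, nearest to Arid1b at 368 kb, an intronic peak of Ano2, a calcium-activated chloride channel gene (20.9), and a peak 7.14 kb from the olfactory receptor gene Olfr855 (20.6). The other 3 were CA repeats 5.15 kb from Map3k7cl (22.7), 4.86 kb from B4galt5, a galactosyltransferase gene (20.3), and at the promoter of Stc2 (20.3).

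At protein-coding promoters (1 kb upstream to 100 bp downstream of a start) there were 33 shared peaks for 34 genes, and 24 of the peaks were CA repeats. Stc2, which encodes a secreted glycoprotein, had the highest score with a midpoint 328 bp upstream of a start, an AHR KO score of 12.0, 138 CA bases and a TNGCGTG site. Tshz2, a zinc finger factor, followed at 18.5 (143 bp upstream), and Clcn4, a chloride and proton exchanger, at 15.4 (797 bp upstream). Ripk2 was 185 bp upstream and, as shown above, free of CA repeats. Ints4, a subunit of the Integrator complex, scored 14.6 and Lzts2, a leucine zipper protein that restrains beta-catenin, 12.6. The next, 9130230L23Rik, Tmem229a, Inpp5k (an inositol phosphatase) and Sftpb (surfactant protein B), scored between 9.39 and 10.1, and all were CA repeats. Of 95 mostly unmasked wild type peaks at promoters of any gene, 6 were shared, beside 32 of all 790 mostly unmasked peaks (4.05%) and 56 of 3643 promoter peaks of every class (1.54%).

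A small number of genes of AHR biology and intestinal identity held a shared peak. On 5 lists of 56 genes in all, 48 had any wild type peak between 10 kb before and 10 kb after the gene and 4 (7.14%) had a shared one, beside 4.33% of all protein-coding genes. Of the 12 genes of the AHR pathway and its target battery, 9 had a wild type peak and only Ugt1a6a, a glucuronosyltransferase, had a shared one. It was a CA repeat 5.37 kb past the end of the gene with a score of 6.43 and an AHR KO score of 8.77, nearer to Mroh2a, among 8 wild type peaks around Ugt1a6a. Of 12 targets and regulators that the study names, all had a wild type peak and Itga2, an integrin subunit for collagen, had a shared one. It lay in an intron 21.4 kb from the gene's start with a score of 8.68 and an AHR KO score of 7.04, 138 CA bases, every base masked, and a GCGTG core, and was 1 of 12 wild type peaks there. Of the 10 mature epithelial genes, Vil1, which encodes villin of the brush border, and Fut9, a fucosyltransferase gene, had a shared peak. The Vil1 peak was intronic, 2.40 kb from the start, with scores of 5.65 and 4.31 and a perfect CA run of 53 bases, and was 1 of 4 wild type peaks. The Fut9 peak, 1 of 14, scored 8.31 and 6.22. None of the 10 Wnt and stem cell genes or the 12 Yap/Tead and fetal-like genes had a shared peak, although 9 and 10 of them had a wild type peak.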

How the data were processed

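The authors aligned single-end reads to mm10 with BWA 0.7.15, marked duplicates with Picard 2.1.1 and called peaks against input with MACS2 2.1.1 (versions also in the submitters' processing notes). The deposited score of each peak is the authors' fold enrichment, a ratio of ChIP to background, read from the values since the columns are unnamed. Depth per library was not analysed here, so intervals cover counting error only. How reads with several alignments were treated is not given in the sources used here. Positions were read as counted from 1 with both ends included (9 peaks start at 1, none at 0). No column of per-sample values was left out.

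Sequence came from GRCm38, the same build, and genes from GENCODE M21. Words as long as a read were counted on all placed and unplaced sequences. Features were read in the 200 bp around each midpoint, with promoter above exon, intron and intergenic. Shared and unshared peaks were compared by two-sided Mantel-Haenszel chi-square tests over width strata of 20 bp up to 600 bp, then 1 open stratum. The 16 tests were adjusted by Benjamini-Hochberg, within each alternative too, at a threshold of 0.05. Alternatives changed the overlap, window, matching, score range, chaining of neighbours and gene definitions. Word counts and the test were tested on simulated data (Python 3.11.15, scipy 1.17.1, numba 0.67.0). The genes named are those with most shared peaks, those at the 10 highest-scoring shared peaks and promoter peaks, and listed genes with a shared peak. Pdzk1 and the gene models in clusters were named for the largest clusters. The members, gene lists and tests were chosen with earlier results of these data known, and the repeat units and CA content after their values were seen.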

Additional observations from a re-analysis of the deposited data

How the results depend on the processing

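No paired analysis was possible because the wild type list pools its 4 cultures and the AHR KO libraries carry no replicate number. Leaving out each culture was not run for the same reason. Of 111 alternative values, 78 kept their direction and their side of the threshold, or, for counts, stayed within 1.5 times. Among them were all those for CA repeats, tandem GGAAT, 75% masking and interspersed-type sequence, and the promoter share never passed. Several of these values still moved by over 1.5 times. With width and score matched the odds ratio was 2.07 for CA repeats (4.73 in the report), 70.8 for tandem GGAAT (171), 0.251 for interspersed-type (0.0982) and 0.766 for multi-copy sequence (0.310), which was 0.675 with 50-base words. In the top 10% of scores it was 2.18 for CA repeats, 82.3 for tandem GGAAT, 0.201 for other tandem repeats (0.636), 2.30 for 75% masking (1.38) and 0.467 for interspersed-type sequence. Without width matching it was 92.6 for tandem GGAAT, 4.34 for 75% masking and 0.361 for GGAATG (0.554), and with 1 peak for each locus 106 for tandem GGAAT. Odds ratios that changed direction or their side of the threshold follow, and the causes were not tested. With width and score matched they were 0.905 for other tandem repeats, 0.63 for TNGCGTG, 0.987 (reversed) for GCGTG, 0.785 for GGAATG, 0.993 (reversed) for introns, 0.997 for intergenic sequence, 0.974 (reversed) for exons and 1.77 (reversed, chi-square adjusted p = 0.0660) for X. In the top 10% of scores they were 0.971 for multi-copy sequence, 0.859 for TNGCGTG, 0.946 for GCGTG, 1.10 for GGAATG, 0.949 for introns, 1.03 for intergenic sequence, 3.10 for X (chi-square adjusted p = 0.0578; reversed for these last 5) and 1.33 for the first 10 Mb (chi-square adjusted p = 0.0811). Without width matching they were 0.428 for AP-1 and 0.578 for X, which then passed, and 0.627 (reversed) for exons. With 1 peak for each locus they were 1.09 for introns, 0.914 (reversed) for exons and 0.466 for X, which then passed (chi-square adjusted p = 0.0133). In 100 bp windows TNGCGTG had 0.597 and GGAATG 0.701, neither past the threshold. Over whole peaks AP-1 had 1.27 (reversed). In windows in none of the tandem repeat classes TNGCGTG had 0.501, GCGTG 0.806 (reversed), AP-1 3.34 (reversed) and GGAATG 0.333, none past the threshold. The member count was 946 with only AHR KO peaks at or above their median score. Members with a neighbour numbered 90 at 2 kb and 263 at 50 kb, and protein-coding genes with a shared peak 949 with 10 kb on either side.

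The AHR KO list rests on 1 ChIP library, and holds 1931 peaks against 123652, so that peaks unshared here are those not called in that library. Above 600 bp widths were not matched further. Shared peaks had higher scores, so matching on score also matches part of what set them apart.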
